A study of Mus musculus with 24 samples.

Results

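The nuclear genes of respiratory complex I were followed in the RNA of mouse oocytes exposed to polystyrene microplastics (PSMPs). The 37 genes are the rows of the authors' count file whose symbol is Ndufa, Ndufb, Ndufc, Ndufs or Ndufv with a number, or Ndufab1. The file holds 55401 genes in all. The rule reads symbols only, and it was set with earlier results of these data known. All 37 were in the 16736 genes left by a filter on low counts. The labels form 6 groups. They are con, in vivo PSMPs, con-in vitro, in vitro PSMPs, SAHA (a histone deacetylase inhibitor) and PSMPs & OE-Hdac3 (PSMPs with overexpression of the histone deacetylase gene Hdac3). Each has 2 libraries of 5 cells, which the labels call oocytes and the series text embryos. The labels give no strain, age, stage, dose or duration, do not say which control belongs to SAHA or by which route the PSMPs & OE-Hdac3 cells were exposed, and are silent on whether replicates are separate animals. The p-values therefore reflect the spread between these libraries only, which may be technical. The series title ties low-dose PSMPs to slower meiotic maturation and to a shortage of histone deacetylases, and its design text speaks of metabolic pathways.

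Complex I, the NADH:ubiquinone oxidoreductase, is the entry point of electrons from NADH into the respiratory chain of the inner mitochondrial membrane. Its peripheral arm oxidises NADH (N module) and passes the electrons over iron-sulfur clusters to ubiquinone (Q module), and its membrane arm, with a proximal and a distal part, pumps protons. The subunits that carry out catalysis are shared between the nuclear and the mitochondrial genome, and the other nuclear subunits, called accessory, are needed for assembly and stability. Oocytes depend on mitochondrial respiration of pyruvate for their ATP, and store most of the RNA that they will use during maturation.

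A RefSeq (GRCm38.p6) start-site window was matched by symbol for 33 of the 37 genes. None was matched for the others, Ndufa2, Ndufb9 and Ndufs1 among them. The upstream stretches of 4 genes are printed because these genes carry the contrasts described further on: Ndufa1, Ndufa4 and Ndufb6 are 3 of the 4 that rose after exposure in vitro in every alternative run, and Ndufv1 is a core subunit that passed no test. Capitals mark letters that match the motifs searched on both strands, GGGCGG (GC box), CCGGAA (the core of ETS-family sites), TGCGCA (the core of NRF1 sites) and CCAAT, and all 4 genes lie on the minus strand.
Ndufa1, chrX:37191239-37191488: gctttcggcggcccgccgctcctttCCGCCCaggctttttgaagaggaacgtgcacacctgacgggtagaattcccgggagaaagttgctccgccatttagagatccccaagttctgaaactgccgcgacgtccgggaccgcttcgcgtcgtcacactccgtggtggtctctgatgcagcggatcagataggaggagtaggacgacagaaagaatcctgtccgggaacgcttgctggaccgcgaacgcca
Ndufa4, chr6:11907498-11907700: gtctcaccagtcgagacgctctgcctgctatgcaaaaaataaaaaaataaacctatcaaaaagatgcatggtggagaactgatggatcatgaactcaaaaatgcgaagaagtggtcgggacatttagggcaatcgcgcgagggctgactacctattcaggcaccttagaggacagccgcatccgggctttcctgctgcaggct
Ndufb6, chr4:40279422-40279671: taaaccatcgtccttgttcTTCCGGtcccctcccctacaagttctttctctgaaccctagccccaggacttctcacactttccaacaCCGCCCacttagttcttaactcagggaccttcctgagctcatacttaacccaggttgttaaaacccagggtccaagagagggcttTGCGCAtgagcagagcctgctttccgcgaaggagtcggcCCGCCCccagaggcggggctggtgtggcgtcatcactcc
Ndufv1, chr19:4012807-4013005: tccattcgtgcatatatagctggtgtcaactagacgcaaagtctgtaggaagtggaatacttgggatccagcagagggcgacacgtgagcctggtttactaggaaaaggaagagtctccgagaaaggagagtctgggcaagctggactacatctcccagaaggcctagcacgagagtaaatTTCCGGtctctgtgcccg
Bases that fall inside the gene model of the count file were left out for Ndufa4 (47 bases) and Ndufv1 (51 bases). The Ndufb6 stretch held 1 ETS core, 2 GC boxes and 1 NRF1 core, the Ndufa1 stretch 1 GC box and the Ndufv1 stretch 1 ETS core, with no shared bases between motifs. The Ndufa4 stretch held none of them. Over the 250 bases before the start, the GC box was found in 14 of 33 members against 32.7% of all windows, the ETS core in 8 of 33 against 12%, the NRF1 core TGCGCA in 7 of 33 against 6.43%, and CCAAT in 10 of 33 against 33.8%. NRF1 is a regulator of many nuclear genes of the respiratory chain. A match is a description of the letters and was not tested as a binding site.

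Depth ran from 6219784 to 35637689 counts per library, lowest in con-in vitro. Sampling noise exceeded the difference between both columns of in vivo PSMPs, which were counted as 1 sample, so that group has n = 1 and all others n = 2. Levels are given as TMM-scaled CPM, the count of a gene relative to the library total after TMM scaling, which corrects for libraries of different composition. Hdac3 measured 336 and 228 CPM in PSMPs & OE-Hdac3 and between 7.17 and 37.4 CPM in the other libraries. The 12 oocyte markers were above 0 in every library. Of the 16736 genes tested, between 29.4% and 34.4% were at 0 in the con and con-in vitro libraries and between 3.35% and 8.16% in the others. The libraries of 3 groups differed widely in the complex I genes. In con, 12 members differed by over 4-fold between the libraries on the CPM + 1 scale, all higher in replicate 2, up to 39.3-fold for Ndufv1. In con-in vitro, 8 members did, all higher in replicate 1, and in in vitro PSMPs 5 did, all higher in replicate 1. No member did in SAHA or PSMPs & OE-Hdac3. The results below are also given without these libraries.

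The summed level of the 37 genes was 631 and 1175 CPM (con), 1525 CPM (in vivo PSMPs), 630.0 and 361 CPM (con-in vitro), 1713 and 1568 CPM (in vitro PSMPs), 1907 and 1645 CPM (SAHA) and 1779 and 1852 CPM (PSMPs & OE-Hdac3). The con-in vitro libraries lay at or below the lower con library, and all SAHA, in vitro PSMPs, in vivo PSMPs and PSMPs & OE-Hdac3 libraries lay above the higher con library. As a share of all counts the genes took 0.0206% (95% exact binomial interval 0.0195 to 0.0218%, counting error only) in con-in vitro replicate 2, the lowest, and 0.290% (0.286 to 0.294%) in PSMPs & OE-Hdac3 replicate 2, the highest. Both measures are relative to the RNA of each library, so they do not give the amount of RNA per cell.

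**Figure D1:**
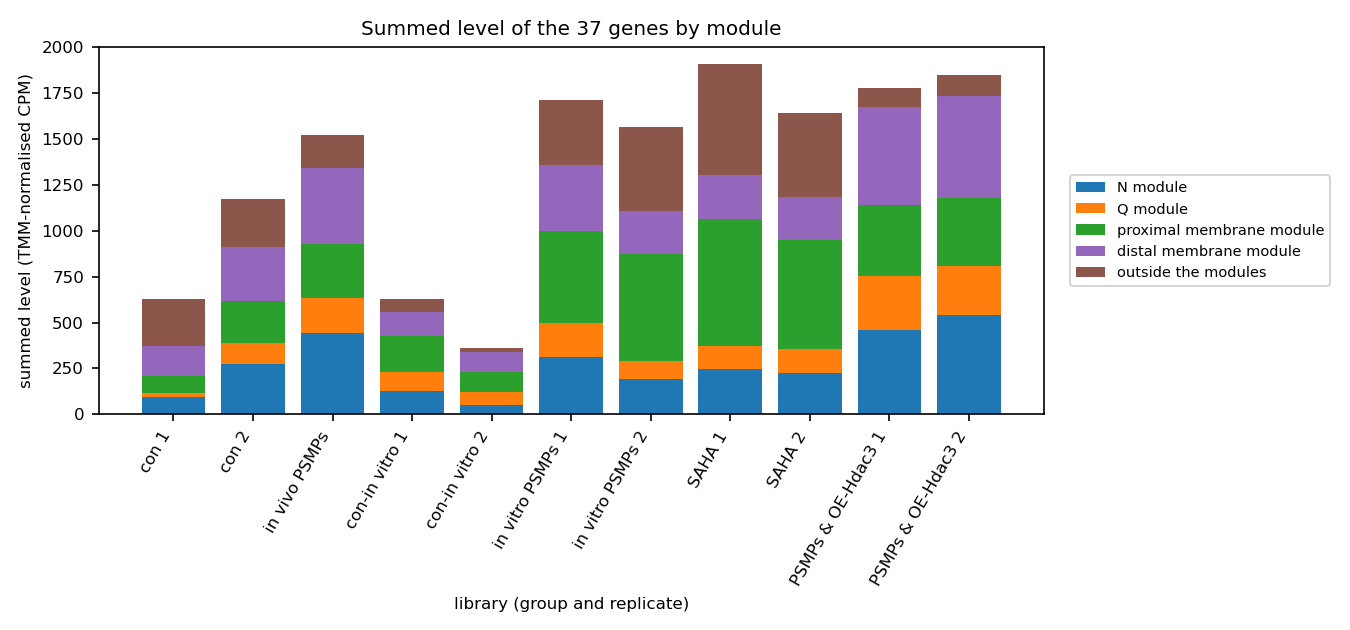
Bars show the summed TMM-normalised CPM of the 37 nuclear complex I genes in each of the 11 libraries, split into the N, Q, proximal membrane and distal membrane modules and the 2 genes outside them. The con-in vitro bars reach 630.0 and 361 CPM, and the brown part, mostly Ndufa4, is largest in SAHA and in vitro PSMPs and small in PSMPs & OE-Hdac3.

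The composition of the sum differed between groups of like total. The 6 core subunits described here (Ndufv1, Ndufv2, Ndufs1, Ndufs3, Ndufs7 and Ndufs8) summed to 36.7 and 142 CPM (con), 226 CPM (in vivo PSMPs), 80.1 and 48.4 CPM (con-in vitro), 162 and 51.2 CPM (in vitro PSMPs), 59.7 and 73.0 CPM (SAHA) and 229 and 233 CPM (PSMPs & OE-Hdac3). The SAHA and PSMPs & OE-Hdac3 libraries, close in the total, did not overlap in this sum. The 2 genes counted outside the modules, Ndufa4 and Ndufab1, summed to 257 and 262 CPM (con), 182 CPM (in vivo PSMPs), 70.9 and 19.1 CPM (con-in vitro), 351 and 459.9 CPM (in vitro PSMPs), 602 and 459.7 CPM (SAHA) and 104 and 116 CPM (PSMPs & OE-Hdac3). Here the order was the opposite, with SAHA highest and PSMPs & OE-Hdac3 between con-in vitro and con.

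In the N module, Ndufv1, which binds the flavin that takes electrons from NADH, measured 0 and 38.3 CPM (con), 53.7 CPM (in vivo PSMPs), 8.01 and 15.6 CPM (con-in vitro), 33.2 and 14.3 CPM (in vitro PSMPs), 10.4 and 13.8 CPM (SAHA) and 70.3 and 69.8 CPM (PSMPs & OE-Hdac3). Both PSMPs & OE-Hdac3 libraries were the highest, while con spread from 0 (a count of 0 there allows up to 0.104 CPM) to above the con-in vitro level. Ndufv2, its iron-sulfur partner, measured 9.62 and 36.2 CPM (con), 65.6 CPM (in vivo PSMPs), 21.7 and 0.273 CPM (con-in vitro), 50.7 and 15.4 CPM (in vitro PSMPs), 22.4 and 24.9 CPM (SAHA) and 48.8 and 60.1 CPM (PSMPs & OE-Hdac3). Ndufs1, the large iron-sulfur subunit, measured 10.5 and 16.6 CPM (con), 23.4 CPM (in vivo PSMPs), 13.6 and 0 CPM (con-in vitro), 16.9 and 7.84 CPM (in vitro PSMPs), 3.73 and 9.78 CPM (SAHA) and 15.7 and 22.0 CPM (PSMPs & OE-Hdac3). The con-in vitro libraries differed widely in Ndufv2 and Ndufs1, and none of these 3 core genes passed the test in any of the 9 comparisons.

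A pair of accessory genes of the N module was low in con-in vitro alone. Ndufs4, whose loss causes a Leigh-like encephalopathy in mice, measured 44.1 and 77 CPM (con), 93.9 CPM (in vivo PSMPs), 7.12 and 13.1 CPM (con-in vitro), 37.9 and 40.2 CPM (in vitro PSMPs), 49.6 and 40.3 CPM (SAHA) and 59.9 and 54.5 CPM (PSMPs & OE-Hdac3). Ndufa6, a LYR-motif subunit that binds an acyl carrier protein, measured 20.9 and 34.2 CPM (con), 67.5 CPM (in vivo PSMPs), 10.1 and 2.73 CPM (con-in vitro), 54.4 and 60.3 CPM (in vitro PSMPs), 63.0 and 50.2 CPM (SAHA) and 55.0 and 61.6 CPM (PSMPs & OE-Hdac3). For both genes the con-in vitro libraries lay below every other library. Ndufa12, a further accessory subunit of this module, measured 0.0347 and 1.75 CPM (con), 8.4 CPM (in vivo PSMPs), 1.19 and 2.19 CPM (con-in vitro), 6.08 and 3.80 CPM (in vitro PSMPs), 6.51 and 5.00 CPM (SAHA) and 5.01 and 8.0 CPM (PSMPs & OE-Hdac3), the highest value being that of in vivo PSMPs. Its counts are uncertain, because the annotated copy Ndufa12-ps holds 2508 counts over the libraries and Ndufa12 itself 1224. Among the other 4 genes, Ndufa2 ranged over 4.79 to 158 CPM, Ndufa7 over 0.903 to 51.4 CPM and Ndufs6 over 0.0347 to 34.7 CPM. These 3 were highest in PSMPs & OE-Hdac3 replicate 2 and lowest in con replicate 1. Ndufv3 ranged over 1.09 to 23.5 CPM, with its maximum in SAHA replicate 1.

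In the Q module, the core subunit Ndufs3 measured 13.3 and 18.1 CPM (con), 21.6 CPM (in vivo PSMPs), 5.93 and 1.09 CPM (con-in vitro), 19.3 and 4.93 CPM (in vitro PSMPs), 8.94 and 7.79 CPM (SAHA) and 30.5 and 22.3 CPM (PSMPs & OE-Hdac3). Ndufs7, which carries the last iron-sulfur cluster before ubiquinone, measured 3.27 and 25.1 CPM (con), 38.6 CPM (in vivo PSMPs), 13.4 and 26.8 CPM (con-in vitro), 27.5 and 5.41 CPM (in vitro PSMPs), 11.4 and 13.1 CPM (SAHA) and 39.4 and 36.4 CPM (PSMPs & OE-Hdac3). PSMPs & OE-Hdac3 was at or near the top for both, together with the in vivo PSMPs library for Ndufs7. Ndufs8, which carries further iron-sulfur clusters, measured 0 and 7.96 CPM (con), 23.1 CPM (in vivo PSMPs), 17.5 and 4.64 CPM (con-in vitro), 14.0 and 3.31 CPM (in vitro PSMPs), 2.83 and 3.64 CPM (SAHA) and 23.9 and 22.5 CPM (PSMPs & OE-Hdac3). Its SAHA libraries were below both con-in vitro libraries and its in vitro PSMPs libraries differed between themselves. The accessory subunit Ndufa5 went another way, with 4.41 and 4.79 CPM (con), 15.5 CPM (in vivo PSMPs), 9.50 and 0 CPM (con-in vitro), 48.0 and 68.1 CPM (in vitro PSMPs), 82.6 and 71.9 CPM (SAHA) and 28.2 and 22.9 CPM (PSMPs & OE-Hdac3). All SAHA and in vitro PSMPs values of Ndufa5 exceeded those of the remaining groups. Ndufa9, an accessory subunit related to short-chain dehydrogenases, ranged over 2.12 to 93.8 CPM and was highest in PSMPs & OE-Hdac3.

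In the proximal membrane module, Ndufa1, a small X-linked subunit needed for assembly (chrX:37187588-37191163 in the count file), measured 13.3 and 21.0 CPM (con), 22.8 CPM (in vivo PSMPs), 8.01 and 4.37 CPM (con-in vitro), 84.4 and 124 CPM (in vitro PSMPs), 148 and 118 CPM (SAHA) and 29.6 and 30.1 CPM (PSMPs & OE-Hdac3). All 4 SAHA and in vitro PSMPs values were above 84 CPM and no other library exceeded 30.1 CPM. Ndufa3, another small membrane subunit, measured 2.08 and 2.32 CPM (con), 2.58 CPM (in vivo PSMPs), 4.75 and 0.546 CPM (con-in vitro), 27.4 and 36.2 CPM (in vitro PSMPs), 42.2 and 35.7 CPM (SAHA) and 8.46 and 8.46 CPM (PSMPs & OE-Hdac3). It showed the same order, with SAHA and in vitro PSMPs above the rest. Ndufa10, a subunit with a nucleoside kinase-like fold (chr1:92439010-92473860), measured 13.9 and 16.3 CPM (con), 32.2 CPM (in vivo PSMPs), 45.1 and 40.2 CPM (con-in vitro), 160.2 and 243 CPM (in vitro PSMPs), 274 and 274 CPM (SAHA) and 85.0 and 55.9 CPM (PSMPs & OE-Hdac3). The con and in vivo PSMPs values were the lowest, con-in vitro followed, and SAHA was the highest. Ndufa11, a membrane subunit related to the TIM17 family, measured 10.6 and 33.3 CPM (con), 34.4 CPM (in vivo PSMPs), 33.8 and 24.6 CPM (con-in vitro), 70.1 and 80.8 CPM (in vitro PSMPs), 119 and 87.1 CPM (SAHA) and 59.7 and 62.5 CPM (PSMPs & OE-Hdac3). Its SAHA values lay above all others and its con and con-in vitro values overlapped.

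The other 5 genes of the proximal module were less clear-cut. Ndufa8 ranged over 4.79 to 75.9 CPM, Ndufa13 over 0 to 43.8 CPM, Ndufc1 over 0.0695 to 20.9 CPM, Ndufc2 over 8.74 to 46.0 CPM and Ndufs5 over 9.0 to 46.5 CPM. None of the 5 passed the test in any comparison. Ndufa8 and Ndufs5 are intermembrane-space subunits with twin CX9C motifs, and Ndufa13 (GRIM-19) was at 0 in con-in vitro replicate 2.

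In the distal membrane module, Ndufb6, a single-pass subunit (chr4:40270591-40279421), measured 42.9 and 44.2 CPM (con), 40.5 CPM (in vivo PSMPs), 3.56 and 4.64 CPM (con-in vitro), 50.7 and 55.2 CPM (in vitro PSMPs), 44.9 and 46.0 CPM (SAHA) and 22.6 and 25.2 CPM (PSMPs & OE-Hdac3). Both con-in vitro values were below 5 CPM and all other libraries were above 22 CPM. Ndufb8, a further single-pass subunit, measured 23.1 and 30.4 CPM (con), 27.8 CPM (in vivo PSMPs), 3.86 and 15.8 CPM (con-in vitro), 54.4 and 65.5 CPM (in vitro PSMPs), 66.0 and 58.4 CPM (SAHA) and 26.5 and 29.9 CPM (PSMPs & OE-Hdac3). The in vitro PSMPs and SAHA values of Ndufb8 exceeded all others. Ndufb9, a LYR-motif subunit, measured 2.40 and 5.38 CPM (con), 20.8 CPM (in vivo PSMPs), 6.82 and 7.65 CPM (con-in vitro), 26 and 20.8 CPM (in vitro PSMPs), 29.1 and 25.0 CPM (SAHA) and 17.6 and 20.6 CPM (PSMPs & OE-Hdac3), with both con values lowest.

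Other distal genes had a different order. Ndufb11, an X-linked subunit, measured 27.8 and 88.8 CPM (con), 142 CPM (in vivo PSMPs), 32.9 and 52.7 CPM (con-in vitro), 84.5 and 24.1 CPM (in vitro PSMPs), 25.9 and 31.4 CPM (SAHA) and 200.0 and 199 CPM (PSMPs & OE-Hdac3). The highest values were those of PSMPs & OE-Hdac3, and the SAHA values were below both con-in vitro values. Ndufb7, a twin CX9C subunit, measured 0 and 6.80 CPM (con), 11.1 CPM (in vivo PSMPs), 20.5 and 0 CPM (con-in vitro), 18.7 and 1.29 CPM (in vitro PSMPs), 1.41 and 2.22 CPM (SAHA) and 34.6 and 25.0 CPM (PSMPs & OE-Hdac3). Its in vitro PSMPs libraries differed by 8.6-fold on the CPM + 1 scale, the widest gap in that group. Ndufb2 was low everywhere, with 3.34 and 4.56 CPM (con), 4.95 CPM (in vivo PSMPs), 0.890 and 0 CPM (con-in vitro), 3.32 and 2.34 CPM (in vitro PSMPs), 2.49 and 1.42 CPM (SAHA) and 7.68 and 8.09 CPM (PSMPs & OE-Hdac3). The remaining genes ranged over 5.19 to 55.8 CPM (Ndufb3), 10.2 to 94.0 CPM (Ndufb4), 5.46 to 71.9 CPM (Ndufb5) and 1.94 to 44.9 CPM (Ndufb10). Of these 4, Ndufb3, Ndufb4 and Ndufb10 were highest in a PSMPs & OE-Hdac3 library and Ndufb5 in the in vivo PSMPs library.

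Ndufa4, first purified with complex I and now assigned to cytochrome c oxidase (chr6:11900292-11907497), measured 192 and 214 CPM (con), 117 CPM (in vivo PSMPs), 46.3 and 11.5 CPM (con-in vitro), 263 and 404 CPM (in vitro PSMPs), 532 and 406 CPM (SAHA) and 31.2 and 29.0 CPM (PSMPs & OE-Hdac3). The order was SAHA, in vitro PSMPs, con, in vivo PSMPs, with both PSMPs & OE-Hdac3 values inside the con-in vitro range. Ndufab1, the mitochondrial acyl carrier protein, which also serves fatty acid synthesis in the mitochondrial matrix, measured 64.4 and 47.3 CPM (con), 64.9 CPM (in vivo PSMPs), 24.6 and 7.65 CPM (con-in vitro), 88.1 and 56.2 CPM (in vitro PSMPs), 69.9 and 53.6 CPM (SAHA) and 72.7 and 86.9 CPM (PSMPs & OE-Hdac3). Only con-in vitro stood apart, below all other libraries.

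**Figure D2:**
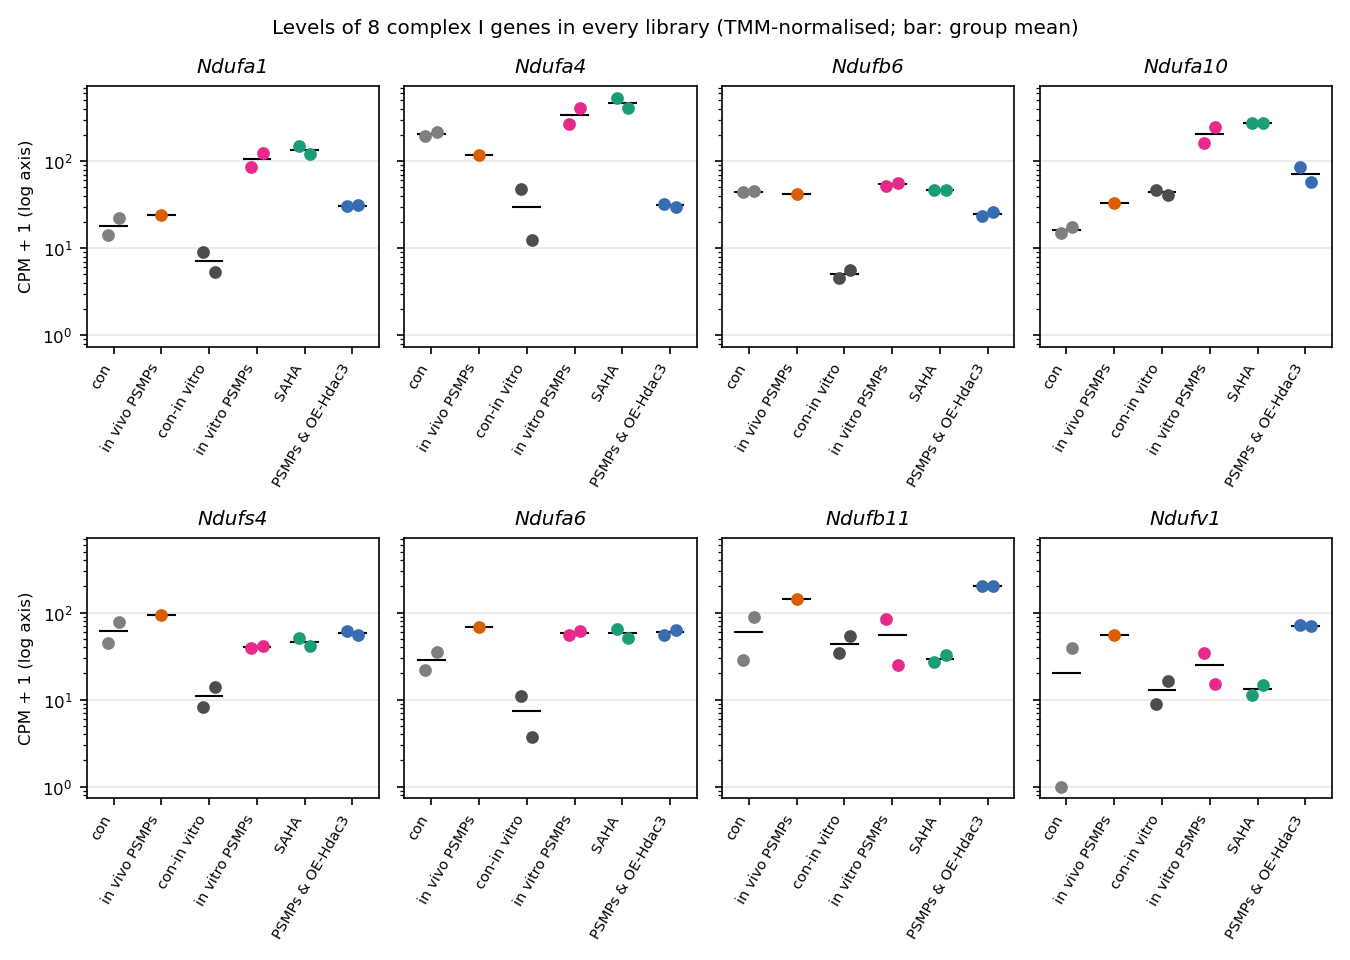
Points show the level of 8 genes in each library, as TMM-normalised CPM + 1 on a log axis, by group, with bars at the group means. Ndufb6, Ndufs4 and Ndufa6 are low in con-in vitro only, Ndufa1, Ndufa4 and Ndufa10 are high in in vitro PSMPs and SAHA, and Ndufb11 and the core gene Ndufv1 are highest in PSMPs & OE-Hdac3 with a wide spread in con.

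**Figure D3:**
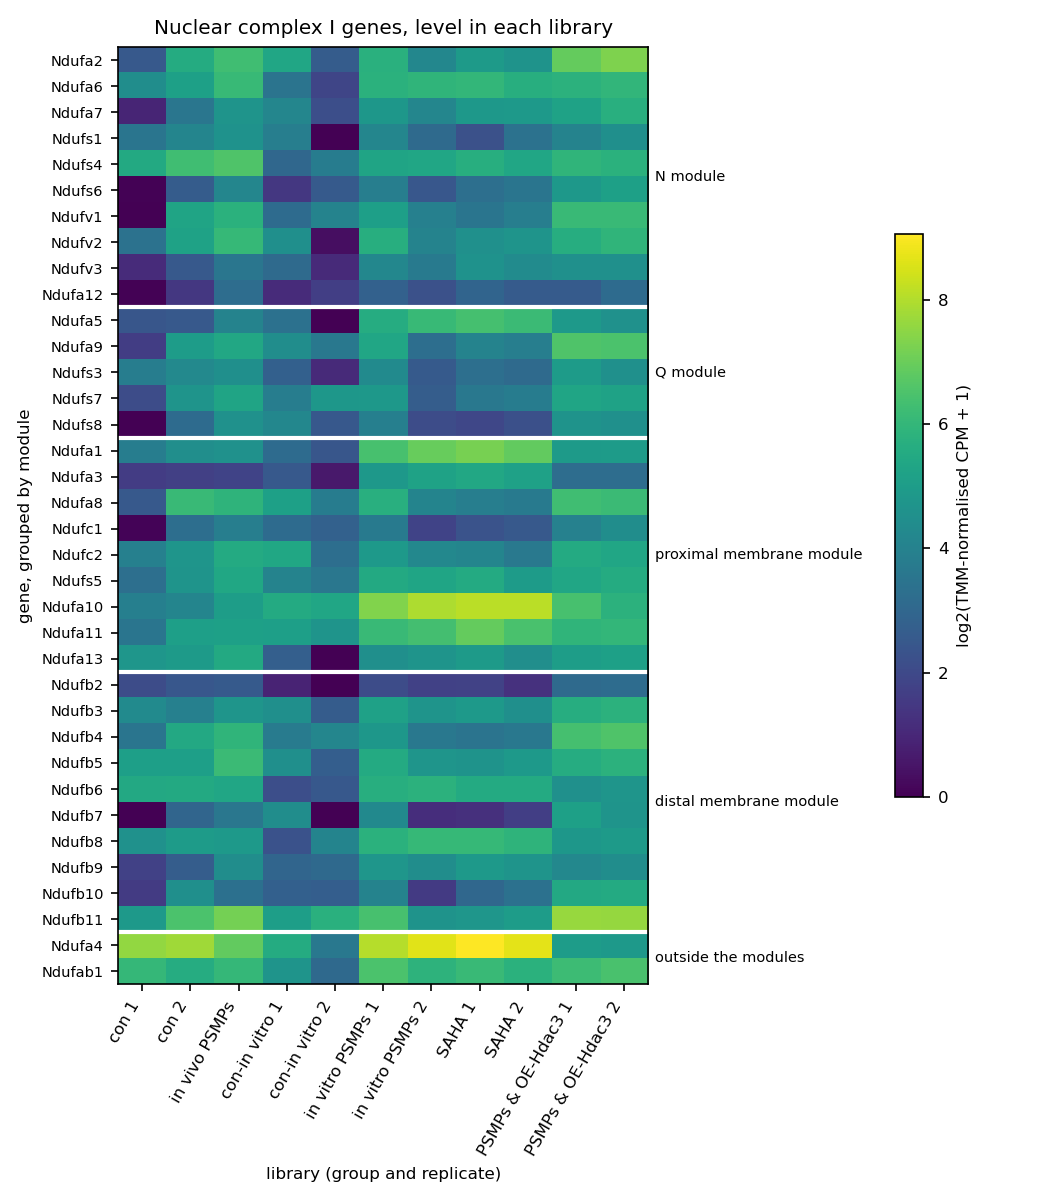
Each row is 1 of 36 of the 37 genes and each column 1 of the 11 libraries, and colour gives log2(TMM-normalised CPM + 1). The first con column and the second con-in vitro column are the darkest, and Ndufa4 holds the brightest cells.

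By group mean, PSMPs & OE-Hdac3 was the highest group for 19 of the 37 genes, in vivo PSMPs for 9, SAHA for 8 and in vitro PSMPs for 1. Con-in vitro was the lowest group for 17 genes, con for 10 and SAHA for 10. Scaled by exonic length, so that genes can be compared with each other, the mean of the 6 group levels was highest for Ndufa4 (143 CPM per kb), Ndufa1 (125) and Ndufb11 (96.4). It was lowest for Ndufb2 (0.652), Ndufs1 (1.69) and Ndufb7 (2.45). The length-scaled level of Ndufa4 was 147 in con, 84.5 in the in vivo PSMPs library, 20.9 in con-in vitro, 241 in in vitro PSMPs, 339.6 in SAHA and 21.8 in PSMPs & OE-Hdac3. That of Ndufb11 was 64.2 in con, 156 in the in vivo PSMPs library, 47.2 in con-in vitro, 59.8 in in vitro PSMPs, 31.6 in SAHA and 219 in PSMPs & OE-Hdac3, so that Ndufb11 stood above Ndufa4 in 3 of the 6 groups and below it in the other 3.

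Exposure in vitro was compared with con-in vitro. Among the members 9 rose and none fell, or 24.3% of the 37 where 8.57% of all genes tested were called higher and 6.78% lower. Of the 9, 5 are accessory subunits of the membrane arm. The log2 fold changes (± SE, edgeR quasi-likelihood test, Benjamini-Hochberg adjustment over all genes) were 4.07 ± 0.53, adjusted p = 0.00128 for Ndufa1, 3.69 ± 0.51, adjusted p = 0.00166 for Ndufb6, 3.59 ± 0.98, adjusted p = 0.0388 for Ndufa3, 3.53 ± 0.61, adjusted p = 0.00536 for Ndufa4 and 3.16 ± 0.65, adjusted p = 0.0128 for Ndufa6. Ndufb8 (2.60 ± 0.67, adjusted p = 0.0315), Ndufa10 (2.24 ± 0.38, adjusted p = 0.00487), Ndufab1 (2.16 ± 0.59, adjusted p = 0.039) and Ndufs4 (1.95 ± 0.50, adjusted p = 0.0307) completed the set. The median log2 fold change was 1.44 over the members and 0.71 over all genes. By module, 3 of 9 proximal and 2 of 10 distal membrane genes, 2 of 10 N genes, 0 of 6 Q genes and both genes outside the modules rose.

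None of the 6 core subunits passed that test. Their log2 fold changes were 1.01 ± 1.77, adjusted p = 0.719 for Ndufv1, 1.59 ± 1.31, adjusted p = 0.419 for Ndufv2 and 0.86 ± 1.48, adjusted p = 0.713 for Ndufs1 in the N module. In the Q module they were 1.79 ± 1.00, adjusted p = 0.24 for Ndufs3, -0.29 ± 1.02, adjusted p = 0.872 for Ndufs7 and -0.35 ± 1.77, adjusted p = 0.917 for Ndufs8. The standard errors are large beside these values, so a difference of several-fold would not have been detectable, and the values of Ndufs7 and Ndufs8 turned above 0 with scaling by library totals. Of the 12 oocyte markers, 7 rose in the same comparison and none fell, and of the 12 cumulus and granulosa markers tested, 1 fell, Gja1. The part of these markers in the complex I result was not tested. When single libraries were left out, the number of members called was 4 without in vitro PSMPs replicate 1 or in vitro PSMPs replicate 2, 5 without SAHA replicate 1 or SAHA replicate 2, 14 without con replicate 1 or con replicate 2 and 15 without con-in vitro replicate 1. In those fits 6.55% to 32.6% of all genes were called. Ndufa1, Ndufa4, Ndufb6 and Ndufa10 kept their calls in all 21 alternatives run, and with scaling by library totals the medians were 2.49 over members and 1.70 over all genes.

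SAHA was compared with con-in vitro, a comparison that shares its control with the one above. Among the members 9 rose and none fell, which is 24.3% of the members against 11.7% of all genes called higher and 8.14% lower. The log2 fold changes (± SE) were 4.42 ± 0.54, adjusted p = 0.000773 for Ndufa1, 4.02 ± 0.62, adjusted p = 0.00268 for Ndufa4, 3.88 ± 0.99, adjusted p = 0.0266 for Ndufa3, 3.47 ± 0.50, adjusted p = 0.0018 for Ndufb6, 3.15 ± 0.65, adjusted p = 0.0112 for Ndufa6 and 2.69 ± 0.39, adjusted p = 0.00177 for Ndufa10. They were 2.65 ± 0.67, adjusted p = 0.0255 for Ndufb8, 2.15 ± 0.50, adjusted p = 0.0182 for Ndufs4 and 1.94 ± 0.58, adjusted p = 0.0471 for Ndufab1. The median was 1.44 over the members and 0.66 over all genes, and it was 0.01 over the 6 core subunits, of which none passed. Of the 12 oocyte markers, 9 rose, and of the 12 cumulus and granulosa markers tested, 1 fell, Gja1. Their part in the complex I values was not tested. When single libraries were left out, the number of members called was 4 without SAHA replicate 1, 5 without SAHA replicate 2, 14 without con replicate 2, 15 without con replicate 1 and 16 without con-in vitro replicate 1. In those fits 6.64% to 38.2% of all genes were called. Ndufa1, Ndufa4, Ndufb6 and Ndufa10 again kept their calls in all 21 alternatives.

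SAHA was also compared with con, because the labels do not name its control. Among the members 6 rose and none fell, or 16.2% of the members against 20.2% of all genes called higher and 6.75% lower, so the share was no larger than the background. The genes were Ndufa10 (4.18 ± 0.41, adjusted p = 0.00183), Ndufa3 (4.14 ± 0.98, adjusted p = 0.0178), Ndufa5 (4.07 ± 1.27, adjusted p = 0.0434), Ndufa1 (2.95 ± 0.50, adjusted p = 0.00766), Ndufb9 (2.80 ± 0.72, adjusted p = 0.0223) and Ndufa11 (2.23 ± 0.57, adjusted p = 0.0227). Of the 6, 4 belong to the proximal membrane module. Among the oocyte markers, 5 of 12 rose and 1 fell, and of the 12 cumulus and granulosa markers tested 3 rose (Inha, Inhba and Fshr), and their part in the complex I values was not tested. Inha was at 0 in both con libraries and at 1.53 and 0.967 CPM in SAHA, and the 15 cumulus and granulosa markers, which summed to 47.3 and 61.7 CPM (con), reached 63.1 and 70.7 CPM (SAHA). Ndufa4 had a log2 difference of 1.21 ± 0.55, adjusted p = 0.139 and Ndufb6 one of 0.06 ± 0.44, adjusted p = 0.953, neither of which passed. The median was 0.04 over the members and 0.59 over all genes, and over the members it turned to -0.20 with library totals and to -0.34 without con replicate 1, where 6 members rose and 2 fell. When single libraries were left out, the number called was 1 without SAHA replicate 1, 2 without SAHA replicate 2, 3 without PSMPs & OE-Hdac3 replicate 1 or PSMPs & OE-Hdac3 replicate 2 and 14 without con replicate 2, with 1.31% to 38.1% of all genes called, and Ndufa10 kept its call in all 21 alternatives.

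The controls themselves differed. In con-in vitro against con, Ndufb6 (-3.40 ± 0.50, adjusted p = 0.00193), Ndufa4 (-2.82 ± 0.59, adjusted p = 0.00991), Ndufs4 (-2.58 ± 0.51, adjusted p = 0.00743) and Ndufa6 (-2.11 ± 0.63, adjusted p = 0.0383) fell. Ndufa10 rose (1.5 ± 0.37, adjusted p = 0.0205). The 4 genes that fell are 10.8% of the members against 10.5% of all genes, and the 1 that rose is 2.70% against 14.7%. Of the 12 oocyte markers, 6 fell, and of the 12 cumulus and granulosa markers tested, 1 rose (Gja1) and 1 fell (Cyp11a1). Their part in the complex I values was not tested. With library totals the split was 0 higher and 9 lower, and the call of Ndufa10 was lost. The shares of all genes by direction in that fit are not given here, so the split has no background beside it. When single libraries were left out, the number called was 3 without PSMPs & OE-Hdac3 replicate 1 or PSMPs & OE-Hdac3 replicate 2, 13 without con-in vitro replicate 1 and 16 without con replicate 2, with 16.2% to 39.1% of all genes called, and no member was called when only these groups were fitted. The sign of the median over the members rested on con replicate 2: without it the median went from -0.36 to 0.44.

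Overexpression of Hdac3 with PSMPs was compared with con-in vitro. Ndufa6 (3.19 ± 0.65, adjusted p = 0.0227), Ndufb6 (2.54 ± 0.49, adjusted p = 0.0163), Ndufs4 (2.50 ± 0.51, adjusted p = 0.0213) and Ndufa1 (2.27 ± 0.50, adjusted p = 0.0296) rose and none fell. They are 10.8% of the members against 2.47% of all genes called higher and 3.94% lower. Among the oocyte markers, 4 of 12 rose and 1 fell, and their part in the result was not tested. The fitted value of all 37 members was above 0, as it was for 63.3% of all genes, and the median was 2.09 over the members and 0.69 over all genes. In 35 members both PSMPs & OE-Hdac3 libraries lay above both con-in vitro libraries, an arrangement that 47.2% of all genes showed. When single libraries were left out, the number called was 0 without SAHA replicate 1, SAHA replicate 2, PSMPs & OE-Hdac3 replicate 1 or PSMPs & OE-Hdac3 replicate 2, 2 without in vitro PSMPs replicate 2, 12 without con-in vitro replicate 1, 14 without con replicate 2 and 15 without con replicate 1. In those fits 1.70% to 21.1% of all genes were called. With library totals 22 members and 27.3% of all genes (in either direction) were called, and the medians were 3.61 over members and 2.18 over all genes.

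Against in vitro PSMPs, PSMPs & OE-Hdac3 had 1 changed member. Ndufa4 fell, with a log2 fold change of -3.47 ± 0.60, adjusted p = 0.0175, from 333 ± 99.2 CPM (SD, n = 2) to 30.1 ± 1.57 CPM (SD, n = 2). That is 2.70% of the members against 2.98% of all genes called lower and 1.85% called higher. Ndufa10 (-1.51 ± 0.37, adjusted p = 0.0524), Ndufa1 (-1.80 ± 0.48, adjusted p = 0.0665) and Ndufa3 (-1.91 ± 0.89, adjusted p = 0.283) had values below 0 that did not pass. The 6 core subunits had values above 0, from 0.60 to 1.56, and none passed. The median was 0.72 over the members and 0.09 over all genes. Of the 12 oocyte markers, 4 fell in this comparison. The number of members called was 0 without SAHA replicate 1, SAHA replicate 2, PSMPs & OE-Hdac3 replicate 1, in vitro PSMPs replicate 1, in vitro PSMPs replicate 2 or PSMPs & OE-Hdac3 replicate 2, 3 without con-in vitro replicate 1 or con-in vitro replicate 2 and 4 without con replicate 1 or con replicate 2. In those fits 0% to 14.3% of all genes were called.

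Exposure in vivo was compared with con, as 1 merged library against 2. No member passed the test, where 4.88% of all genes were called. At an unadjusted p under 0.05 there were 2 members by edgeR, where 26.3% of all genes had one, and DESeq2 called 1 member and 16.3% of all genes after adjustment. The smallest p-values were those of Ndufb9 (log2 2.42 ± 0.79, adjusted p = 0.0857), Ndufa10 (1.09 ± 0.43, adjusted p = 0.141) and Ndufa12 (3.22 ± 1.63, adjusted p = 0.253). The in vivo PSMPs library lay above both con libraries for 32 members, an arrangement shown by 45.6% of all genes. The median was 1.20 over the members and 0.25 over all genes, with 1.55 in the N module, 1.60 in the Q module, 0.67 in the proximal and 0.85 in the distal membrane module.

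This comparison depended on the control library. Without con replicate 2 there were 15 members called, with 25.9% of all genes, and without con replicate 1 there were 0, with 16.8%. The number was 1 without con-in vitro replicate 1 or 2. The in vivo PSMPs library also held more RNA of cumulus and granulosa markers. Their summed level was 47.3 and 61.7 CPM in con and 162 CPM in in vivo PSMPs. Of the 15 markers, 11 were at 0 in each con library and 2 in in vivo PSMPs, and the inhibin subunit gene Inha was at 0 in both con libraries and at 59.4 CPM in in vivo PSMPs. Their part in the complex I values was not tested.

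PSMPs & OE-Hdac3 was also set against in vivo PSMPs. No member passed in the main fit, as no gene at all did (0% called). The number of members called changed when only these groups were fitted, as given in the closing section. By edgeR 2 members and 14.4% of all genes had an unadjusted p under 0.05, and DESeq2 called 0 members and 5.2% of all genes after adjustment. Ndufa4 had a log2 difference of -1.95 ± 0.64, adjusted p = 0.245, Ndufa10 one of 1.13 ± 0.47, adjusted p = 0.317 and Ndufa3 one of 1.71 ± 1.15, adjusted p = 0.582. The median was 0.38 over the members and 0.23 over all genes.

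The effect of PSMPs in vitro was tested against that in vivo as a difference of fold changes. It was larger in vitro for Ndufa4 (4.33 ± 0.96, adjusted p = 0.0234), Ndufb6 (3.79 ± 0.78, adjusted p = 0.0171) and Ndufa1 (3.67 ± 0.80, adjusted p = 0.0215), and no member was called with a larger effect in vivo. These 3 are 8.11% of the members against 4.87% of all genes with a larger and 6.4% with a smaller effect in vitro. In vivo, the same genes had log2 fold changes of -0.80 ± 0.69, adjusted p = 0.528 for Ndufa4, -0.11 ± 0.55, adjusted p = 0.981 for Ndufb6 and 0.41 ± 0.56, adjusted p = 0.725 for Ndufa1. The median difference was 0.08 over the members and 0.06 over all genes. The log2 difference between the controls, con-in vitro against con, was -3.40 ± 0.50 for Ndufb6 and -2.82 ± 0.59 for Ndufa4 and is part of this difference of effects. The effect was also larger in vitro for 6 of the 12 oocyte markers. It was smaller for 1 of the 12 cumulus and granulosa markers tested, Gja1. The part of these markers in the result was not tested. When single libraries were left out, the number called was 0 without in vitro PSMPs replicate 2, 1 without SAHA replicate 1 or SAHA replicate 2 and 9 without con replicate 2 or con-in vitro replicate 1, with 3.69% to 30.0% of all genes called, and it was 0 when only the 4 groups of the comparison were fitted. Without con replicate 2 the median difference over the members fell below 0.

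**Figure D4:**
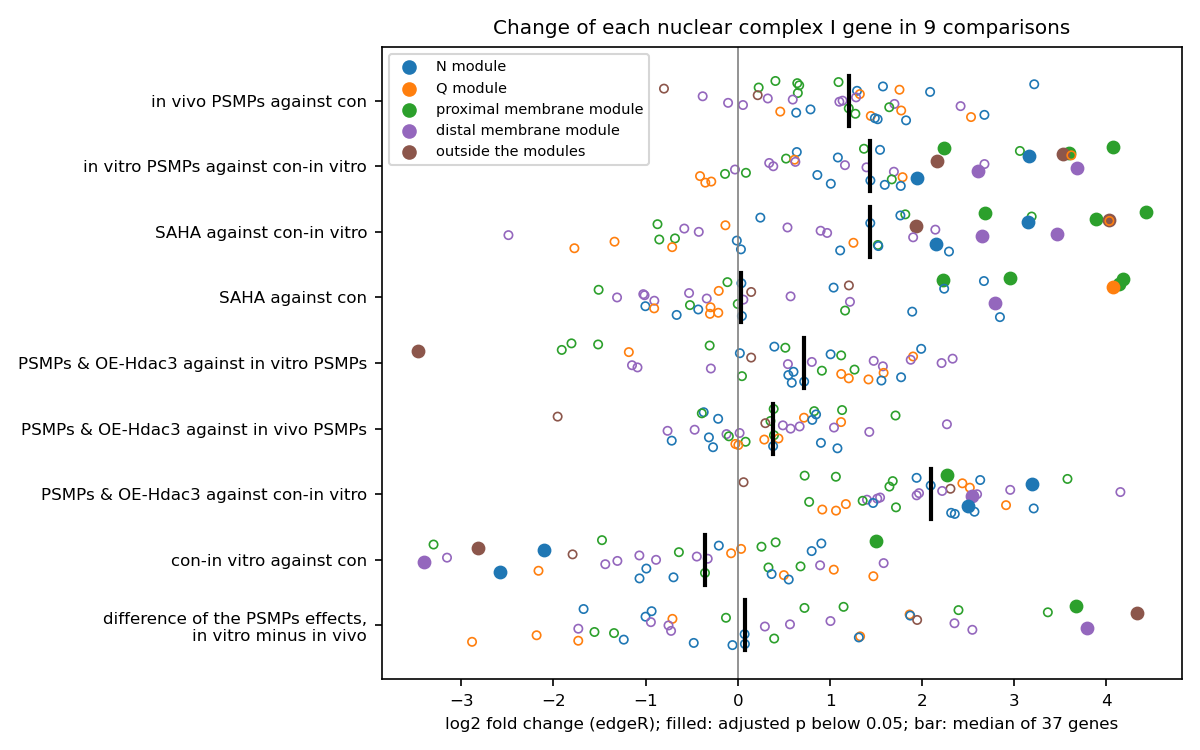
Each point is the edgeR log2 fold change of 1 of the 37 genes in 1 of 9 comparisons, coloured by module and filled where the adjusted p was below 0.05, and the bars mark the medians. Filled points lie to the right in in vitro PSMPs and SAHA against con-in vitro (9 each), and 4 of the 5 filled points of con-in vitro against con lie to the left.

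Among 20 known assembly factors of complex I, which build the arms but leave the finished enzyme, 19 were in the file and tested. Their summed level was 407 and 574 CPM (con), 625 CPM (in vivo PSMPs), 297 and 266 CPM (con-in vitro), 561 and 461 CPM (in vitro PSMPs), 513 and 409 CPM (SAHA) and 545 and 562 CPM (PSMPs & OE-Hdac3). The con-in vitro sums were the lowest, as for the subunits. In vitro PSMPs against con-in vitro, 2 rose, Ndufaf7 (2.87 ± 0.65, adjusted p = 0.018), a methyltransferase, and Tmem70 (2.39 ± 0.69, adjusted p = 0.0471), a membrane protein that also serves ATP synthase. SAHA against con-in vitro, Ndufaf7 (2.81 ± 0.64, adjusted p = 0.0168), Tmem70 (2.63 ± 0.69, adjusted p = 0.0297) and Ndufaf2 (2.12 ± 0.58, adjusted p = 0.0335) rose and Dmac1 fell (-2.66 ± 0.69, adjusted p = 0.0279). In PSMPs & OE-Hdac3 against con-in vitro, Ndufaf7 rose (2.67 ± 0.64, adjusted p = 0.041). In con-in vitro against con, Ndufaf7 (-2.88 ± 0.65, adjusted p = 0.013), Tmem70 (-2.96 ± 0.70, adjusted p = 0.017) and Ndufaf2 (-2.07 ± 0.57, adjusted p = 0.0307) fell, and Dmac1 (2.65 ± 0.69, adjusted p = 0.0241) rose. Tmem126b was also called higher there and in SAHA against con, but it was at 0 in both con libraries and in con-in vitro replicate 2, with 10.4 CPM in con-in vitro replicate 1 and 2.09 and 0.910 CPM in SAHA, so the first call rests on 1 library. No assembly factor passed in the remaining comparisons. Against con-in vitro, the share of the 19 that rose was 10.5% after in vitro exposure, beside 8.57% of all genes. With SAHA 15.8% rose and 5.26% fell, beside 11.7% and 8.14%. In PSMPs & OE-Hdac3, 5.26% rose, beside 2.47%. In con-in vitro against con, 15.8% fell and 10.5% rose, beside 10.5% and 14.7%. In SAHA against con 5.26% rose, beside 20.2%. Each share rests on few genes, and whether it differs from that of all genes was not tested.

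The 7 subunits encoded by mitochondrial DNA form the proton-pumping core of the membrane arm. They summed to 8599 and 2984 CPM (con), 2525 CPM (in vivo PSMPs), 1892 and 918 CPM (con-in vitro), 435 and 1068 CPM (in vitro PSMPs), 1965 and 714 CPM (SAHA) and 513 and 626 CPM (PSMPs & OE-Hdac3). Con replicate 1, lowest of the con libraries in nuclear complex I RNA, was highest of all libraries in mitochondrial complex I RNA. In SAHA against con, mt-Nd2 (-2.41 ± 0.66, adjusted p = 0.0283), mt-Nd4 (-2.60 ± 0.74, adjusted p = 0.0312) and mt-Nd5 (-2.51 ± 0.81, adjusted p = 0.0491) fell. In con-in vitro against con, mt-Nd2 (-2.16 ± 0.66, adjusted p = 0.0411) and mt-Nd4 (-2.36 ± 0.73, adjusted p = 0.0435) fell. None of the 7 passed in the other comparisons. Of them, mt-Nd3 reached at most 4.17 CPM (con replicate 1) and mt-Nd4l 1.94 CPM (in vitro PSMPs replicate 2). These genes add little to the sums. The cDNA kit amplifies messenger RNA, and how it captures mitochondrial transcripts was not tested.

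**Figure D5:**
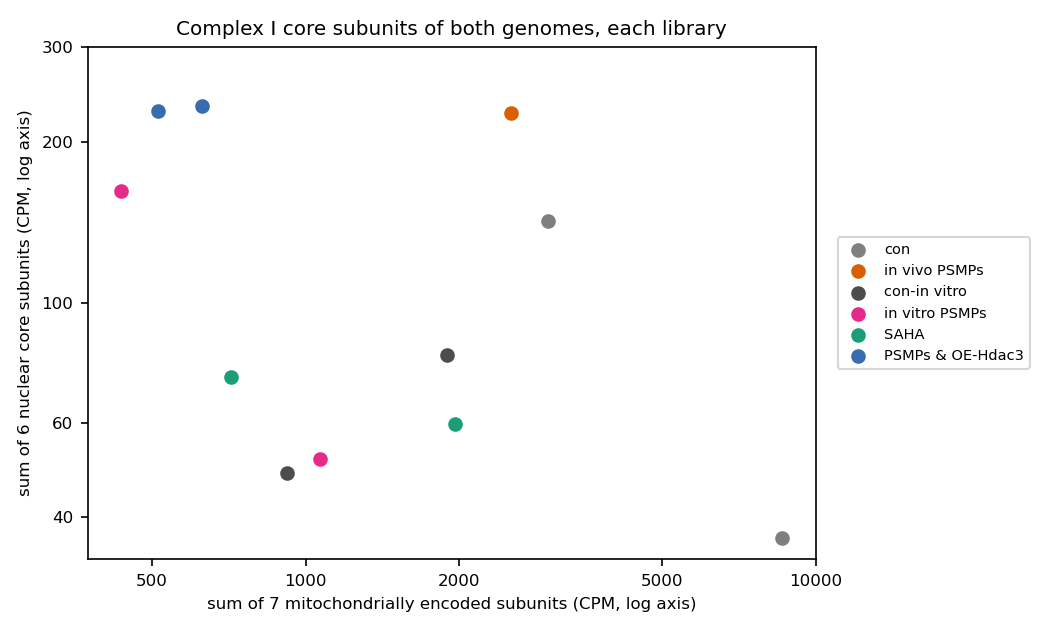
Each point is a library, with the summed CPM of the 7 mitochondrially encoded subunits on the x axis and of the 6 nuclear core subunits on the y axis, both log axes. Con replicate 1 lies at the lower right (8599 and 36.7 CPM) and the PSMPs & OE-Hdac3 libraries at the upper left (513 and 626 against 229 and 233 CPM).

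Nuclear genes of the other respiratory complexes (II to V, 46 tested) gave counts of the same kind. Against con-in vitro, 16 of them rose in in vitro PSMPs, 17 in SAHA and 7 in PSMPs & OE-Hdac3, with 0, 1 and 0 that fell. The medians were 1.44, 1.61 and 1.88, beside 1.44, 1.44 and 2.09 for complex I. Of the 75 mitochondrial ribosomal protein genes tested, 12, 13 and 8 rose and 1, 1 and 0 fell in these comparisons. The shares that rose were 34.8%, 37.0% and 15.2% for complexes II to V and 16%, 17.3% and 10.7% for the ribosomal protein genes. For complex I they were 24.3%, 24.3% and 10.8%, and for all genes 8.57%, 11.7% and 2.47%. In con-in vitro against con, 10 genes of complexes II to V and 15 mitochondrial ribosomal protein genes fell, and 1 and 2 rose. The shares that fell were 21.7% and 20%, beside 10.8% for complex I and 10.5% for all genes. Those that rose were 2.17% and 2.67%, beside 2.70% for complex I and 14.7% for all genes.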

How the data were processed

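RNA sequencing of mouse oocytes gave 12 columns of whole-number counts per gene, deposited by the authors for 55401 genes with no normalization. The tools named in the submitters' processing notes are HISAT2, Bowtie2 2.2.5, featureCounts, fastp 0.12.4, DESeq2, deepTools 3.5.1, SAMtools and Picard, with mm10. The gene length column of the count file is named as featureCounts writes it. The sources used here do not state which tool made the counts. Whether strand was used is not given either, so reads of overlapping genes cannot be told apart. Per the labels' protocols, full-length cDNA was amplified and cut with a transposase.

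The in vivo PSMPs columns (chi-square per degree of freedom 0.444, and 16.5 to 384 elsewhere) were merged as their mean. Genes passed edgeR's filter at a minimum count of 10 (16736 genes). Libraries were scaled by TMM (factors 0.542 to 1.57), 1 model with a term per group was fitted (R 4.3.3, edgeR 4.0.16, quasi-likelihood, 5 residual degrees of freedom), and p-values were adjusted over all genes with 0.05 as threshold. The standard error is the log2 fold change over the square root of F. The lone in vivo library is assumed to vary like the others. Alternatives, among them DESeq2 1.42.0, are in the closing section.

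The members and lists were chosen with earlier results of these data known. Values in every library are given for 6 core subunits (1 member is not reported singly here), for up to 6 members per direction and comparison (past the threshold, at least 10 CPM, no overlap), for the 3 highest and 3 lowest by length-scaled level, and for Ndufa4 and Ndufab1; where none passed, the 3 of smallest p were named. The motifs were searched on both strands of the RefSeq windows, and the NRF1 core was chosen after a longer NRF1 motif had been searched and its counts seen. The CUT&Tag libraries of the series were not analysed here.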

Additional observations from a re-analysis of the deposited data

Results flagged for a closer look

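The effect of PSMPs differed between the routes of exposure for 3 genes, by the test of the difference itself (edgeR, adjusted over all genes). The log2 difference, in vitro minus in vivo, was 4.33 for Ndufa4, 3.79 for Ndufb6 and 3.67 for Ndufa1. Each effect is taken against its own control, and the controls differ in Ndufb6 and Ndufa4. The log2 difference of con-in vitro against con was -3.40 for Ndufb6 and -2.82 for Ndufa4 and is part of these values. The group means of Ndufa1 were 17.2 CPM (con) and 6.19 CPM (con-in vitro), a difference that did not pass the test. In vivo exposure rests on 1 library, and when only the 4 groups concerned were fitted none of the 3 passed.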

How the results depend on the processing

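No gene past the threshold changed the sign of its log2 fold change in an alternative. Of the values printed for genes that did not pass, some did. With library totals Ndufs7 and Ndufs8 turned to 0.79 and 0.75 in in vitro PSMPs against con-in vitro, and Ndufb6 to 0.22 in in vivo PSMPs against con. In SAHA against con, Ndufb6 was -0.10 at a minimum count of 50, -0.092 with library totals, -0.12 without mitochondrially encoded genes and -0.0099 with only the groups compared. Leaving out single columns gave -0.11 to 0.077 for Ndufb6 there, and -0.14 to 10.93 for Ndufs1 (the highest with the remaining con-in vitro library at 0, no bound), -1.89 to 0.45 for Ndufs7 and -1.74 to 0.90 for Ndufs8, these 3 in the in vitro exposure comparison. The sign of the median over the members did turn in some alternatives. Without con replicate 2 it turned in con-in vitro against con and in the difference of the PSMPs effects. The median over the members in SAHA against con (0.04) fell below 0 in 7 alternatives, as low as -0.34 without con replicate 1, and that of the difference (0.08) in 3, as low as -1.08 without con replicate 2. Main counts of members called were 0 for in vivo PSMPs against con, 9 for in vitro PSMPs and 9 for SAHA against con-in vitro, 6 for SAHA against con, 1, 0 and 4 for PSMPs & OE-Hdac3 against in vitro PSMPs, in vivo PSMPs and con-in vitro, 5 for con-in vitro against con and 3 for the difference of the PSMPs effects. With DESeq2's Wald test they became 1 (in vivo PSMPs against con), 15 (SAHA against con-in vitro), 6 and 14 (PSMPs & OE-Hdac3 against in vitro PSMPs and con-in vitro), 9 (con-in vitro against con) and 5 (difference). With library totals they became 15 (in vitro PSMPs) and 14 (SAHA) against con-in vitro, 22 (PSMPs & OE-Hdac3 against con-in vitro) and 9 (con-in vitro against con). With the in vivo columns as 2 libraries they became 2 (in vivo PSMPs against con), 3 and 7 (PSMPs & OE-Hdac3 against in vitro PSMPs and con-in vitro). PSMPs & OE-Hdac3 against in vitro PSMPs gave 3 at a minimum count of 50 and 2 without mitochondrially encoded genes. With only the groups compared in the fit, counts became 5 (in vitro PSMPs against con-in vitro), 12 and 15 (PSMPs & OE-Hdac3 against in vitro and in vivo PSMPs), 0 (con-in vitro against con) and 0 (difference), with fewer genes and samples. DESeq2's size factors and no filter moved no count by over 1.5 times. The share of all genes called moved between fits as well. In PSMPs & OE-Hdac3 against in vitro PSMPs it was 4.83% in the main fit and 8.33% at a minimum count of 50. A changed number of members called is therefore not by itself a change in complex I. Most counts of this section are given without the share of all genes in the same fit. They do not show whether the members exceed that share. The cause of these shifts was not tested. Leaving out single columns gave 0 to 15 for in vivo PSMPs against con, 4 to 15 for in vitro PSMPs and 4 to 16 for SAHA against con-in vitro, 1 to 14 for SAHA against con, 0 to 4, 0 to 0 and 0 to 15 for PSMPs & OE-Hdac3 against in vitro PSMPs, in vivo PSMPs and con-in vitro, 3 to 16 for con-in vitro against con and 0 to 9 for the difference. The replicate block gave 0, 8, 9, 5, 1, 0, 3, 5 and 3 calls in the order of the main counts. Same-numbered libraries did not visibly deviate together (correlations from -0.288 to 0.0566). With 2 libraries a group that differ widely, this cannot exclude that the numbers pair them. Depth limits con-in vitro most, where 3 counts correspond to up to 0.890 CPM.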

Other observations

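Several of the genes have annotated copies in the count file. Ndufs6b held 300 counts over all libraries and Ndufs6 2887, Ndufab1-ps held 769 and Ndufab1 14865, and Ndufs5-ps held 201 and Ndufs5 7975. Ndufb1 is listed only under the symbol Ndufb1-ps and was not counted among the 37 genes.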
